A study of Mus musculus with 2 samples.

Results

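Heat-shock-high surface chondrocytes are cartilage cells of the joint surface that carry many transcripts of the inducible chaperone genes Hspa1a, Hspa1b and Dnajb1. They were taken from 2 droplet single-cell RNA libraries of knee cartilage from Procr-CreER;tdTomato mice, in which tamoxifen lets a Cre recombinase driven by Procr turn on the red protein tdTomato, so that Procr-expressing cells and their descendants stay marked. In both libraries tamoxifen was given at 4 weeks of age. The pulse library was made 2 days and the trace library 4 weeks after it, and each held sorted tdTomato+ cells of 3 pooled mice that were CD45-, Ter119-, CD31- and DAPI-. All tissue was freed with collagenase, Dispase and DNase, and no library without tamoxifen or without digestion was analysed here. Each group had 1 library, so no difference has a replicate error, and no p-value was computed.

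Of 17286 deposited barcodes, 15780 had 500 or more genes and no more than 10% mitochondrial UMIs (unique molecular identifiers, counted transcripts). Among these, 8528 counted as surface chondrocytes, with at least 2 UMIs of the cartilage proteoglycan gene Acan and at most 2 of 6 deeper-zone genes (Matn3, Col9a1, Epyc, Cnmd, Prkg2 and Fxyd2) detected. A surface chondrocyte was heat-shock-high with 10 or more UMIs of Hspa1a, Hspa1b and Dnajb1 together, which held for 860 cells, 539 in pulse and 321 in trace. The 6977 surface chondrocytes with fewer than 3 such UMIs, 2991 in pulse and 3986 in trace, were the comparison cells, and 691 lay between. Cells were thus chosen by measured values of these genes, whose own differences are a description of the choice.

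Cells meet heat, misfolded protein and other proteotoxic stress with the heat shock response. The transcription factor HSF1, held inactive by chaperones, is then released, binds heat shock elements near its target genes and raises chaperones that refold or clear damaged protein. Immediate early genes such as Fos and Egr1 answer growth factors, mechanical load and stress within minutes and need no new protein for it. Surface chondrocytes make lubricin (Prg4) and face joint fluid, and both responses are known to appear in cells that have been freed from tissue by enzymes, as these were. Because every cell in both libraries went through that digestion, a state that cells had in the joint and one that arose during isolation cannot be told apart.

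A heat shock element is a repeat of the unit NGAAN in alternating directions. It was searched on both strands as 2 units, GAANNTTC or TTCNNGAA, and as 3 units, TTCNNGAA followed by 2 further bases and TTC, in RefSeq promoters of build GRCm38.p6 that reach from 250 bases before to 50 bases after a transcript start. A match shows the letters alone, not a bound site. The sequences below belong to both selecting Hspa1 genes, to the small heat shock protein gene Hspb1, and to the early response gene Fos for contrast, since these lead the results. Each is the 150 bases before the start, 5′ to 3′, with 2-unit elements in capitals.

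Hspa1a, chr17:34972157-34972306, minus strand, outside annotated genes: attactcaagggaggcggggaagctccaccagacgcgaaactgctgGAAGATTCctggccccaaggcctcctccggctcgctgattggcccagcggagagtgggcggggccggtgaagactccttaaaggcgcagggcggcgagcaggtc

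Hspa1b, chr17:34959239-34959388, minus strand, outside annotated genes: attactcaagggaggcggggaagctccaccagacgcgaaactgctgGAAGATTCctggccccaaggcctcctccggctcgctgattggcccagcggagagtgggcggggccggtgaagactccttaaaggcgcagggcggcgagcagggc

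Hspb1, chr5:135887769-135887918, plus strand, outside annotated genes: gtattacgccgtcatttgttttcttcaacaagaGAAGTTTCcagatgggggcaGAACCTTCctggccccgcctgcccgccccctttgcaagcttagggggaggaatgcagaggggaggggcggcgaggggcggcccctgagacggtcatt

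Fos, chr12:85473740-85473889, plus strand, outside annotated genes: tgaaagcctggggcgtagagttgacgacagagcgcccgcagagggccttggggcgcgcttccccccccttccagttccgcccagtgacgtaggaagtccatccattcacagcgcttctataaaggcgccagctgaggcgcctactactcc

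The Hspa1a and Hspa1b stretches differed at 1 of 150 bases, and their full promoters were identical at 296 of 300 bases (98.7%). Each held the element GAAGATTC, which began 104 bases before the start. Hspb1 held GAAGTTTC at 117 bases and GAACCTTC at 97 bases before the start, and the Fos promoter held none. For Hspe1, Hsph1 and Dnaja1, 30 bases around the element are shown, since these lie in annotated exons or untranslated regions.

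Hspe1, chr1:55088053-55088082, plus strand, in an annotated UTR of the neighbouring Hspd1: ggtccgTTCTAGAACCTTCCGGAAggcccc

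Hsph1, chr5:149636280-149636309, minus strand, in a UTR of Hsph1: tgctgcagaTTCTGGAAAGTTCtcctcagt

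Dnaja1, chr4:40722333-40722362, plus strand, in an exon of Dnaja1: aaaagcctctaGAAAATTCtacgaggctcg

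The Hspe1 run of 18 bases held 2 overlapping 3-unit elements. It was found in the promoters of both Hspe1 and Hspd1, which are transcribed away from each other. In Hsph1 a 3-unit element began 37 bases after the start of one transcript, and Dnaja1 held a single 2-unit element 124 bases before it.

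Among surface chondrocytes, heat-shock-high cells made up 13.8% in pulse (exact Clopper-Pearson 95% interval 12.7 to 14.9%) and 6.94% in trace (6.22 to 7.71%). All intervals given cover counting error only. With each cell thinned to 2000 UMIs and the threshold set to 5, the shares were 15.8% of 3175 and 6.87% of 4148 surface chondrocytes, with 726 pulse and 479 trace cells of fewer UMIs left out. The share was therefore lower in trace with and without thinning, but the libraries came from different mice, and time after tamoxifen, mice and digestion cannot be told apart. Sex-linked genes differed as well. Ddx3y, a Y-linked gene, stood at 199.9 CPM (UMIs of a gene over all UMIs of the summed cells, times 1000000) in heat-shock-high pulse cells and 0.459 CPM in trace, and Xist, expressed from the inactive X chromosome, at 0.491 and 319 CPM.

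The same threshold was also passed outside the surface chondrocytes. It held for 16.8% of 760 pulse and 17.4% of 224 trace cells with at least 2 Acan UMIs and 3 or more deeper-zone genes, and for 10.8% and 13.8% after thinning. It held for 28.3% of 1872 pulse and 23.6% of 4396 trace cells with fewer than 2 Acan UMIs, and for 36.8% and 27.1% after thinning. The surface share was thus below that of Acan-low cells in both libraries, and after thinning it lay above the deeper-zone share in pulse and below it in trace. Within the Acan-low cells of trace, 42.1% of 285 cells with 3 or more endothelial markers passed (36.3 to 48.1%), against 12.2% of 255 with neutrophil markers (8.41 to 16.8%) and 3.33% of 60 with lymphocyte markers (0.406 to 11.5%). These classes had like median depths of 2606, 2222 and 2464.5 UMIs. The endothelial share differed from both others by more than counting error, while the neutrophil and lymphocyte intervals overlapped. With 3 or more mural, loose connective tissue fibroblast or osteoblast markers, the trace shares were 39.5%, 35.0% and 34.9%. Cells with endothelial, neutrophil and lymphocyte markers were present although the sort was for CD45- and CD31- cells.

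**Figure D1:**
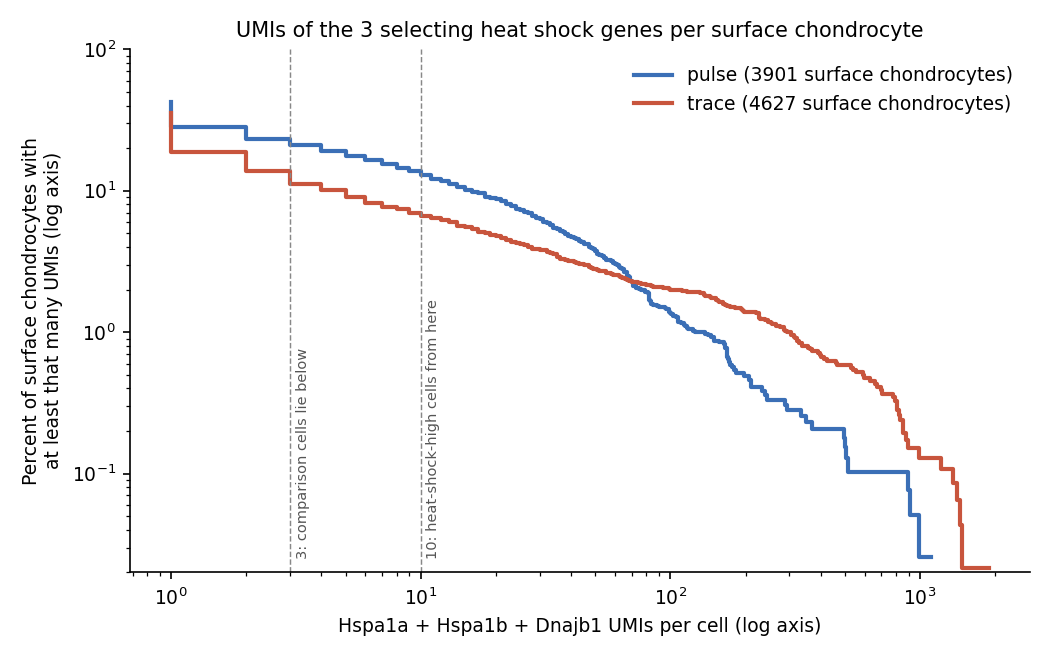
Percent of surface chondrocytes (y axis, log) with at least a given number of Hspa1a, Hspa1b and Dnajb1 UMIs (x axis, log), 1 line per library, with the 2 thresholds dashed. At 10 UMIs the lines stand at 13.8% (pulse) and 6.94% (trace), and the trace line lies above the pulse line at its right end, up to 1888 UMIs.

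Heat-shock-high cells spanned a wide range of these UMIs. The median was 28 in pulse, with a highest cell at 1110, and 35 in trace, with a highest cell at 1888. The upper quartile was 53 in pulse and 152 in trace, so the trace library had fewer such cells but a longer tail. There was no gap at the threshold: 63 pulse cells had 8 or 9 of these UMIs and 65 had 10 or 11, against 33 and 24 trace cells. Just outside and just inside it, Hspa8 stood at 239.8 and 332 CPM in pulse and 582 and 624 CPM in trace, and Hspb1 at 226 and 179.6 CPM and 66.0 and 223 CPM. The threshold therefore cuts a continuous range.

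Of the selecting UMIs, Hspa1b gave 81.7% and Hspa1a 16.6% in pulse and 65.3% and 31.3% in trace. Summed over heat-shock-high cells, Hspa1a reached 2374 CPM in the pulse and 6744 CPM in the trace library, Hspa1b 11666 and 14067 CPM, and Dnajb1 at 244 and 747 CPM. Both Hspa1 genes encode nearly the same inducible HSP70, and Dnajb1 encodes the J-domain partner HSP40 that hands it clients. The Hspa1a and Hspa1b transcripts of 2967 and 2803 bases were 84.3% identical along their length and 50.1% identical over the last 300 bases, the end that this chemistry reads, and how the authors' counting treated reads that match both is not given in the sources used here.

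The surface identity in the label was checked on 7 superficial-zone markers, none of which the choice used. At least 3 of Prg4, Cytl1, Clu, Cilp, Ecrg4, Creb5 and Erg were detected in 97.8% of heat-shock-high and 95.6% of comparison cells in pulse, and in 97.2% and 98.8% in trace. Of the other markers given with the cells, Fos was detected in 13.7% of heat-shock-high cells in pulse and 56.1% in trace, and Phlda1 in 51.0% and 67.9%. Surface markers were thus frequent in both cell sets, and Fos marked a minority of the pulse cells. Deeper-zone markers were detected too. In pulse, at least 2 of 9 were found in 46.0% of heat-shock-high and 49.2% of comparison cells. In trace these shares were 33.0% and 28.4%. Whether the count of surface markers separates surface chondrocytes from deeper-zone or Acan-low cells was not tested. Procr itself stood at 30.5 against 11.1 CPM in pulse and 37.2 against 15.5 CPM in trace, and the reporter transcript Tdtomato at 35.4 against 35.3 CPM and 62.8 against 65.9 CPM, so the reporter was at the same level in both cell sets.

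Markers of other cell types were also more frequent in heat-shock-high cells. At least 2 markers of a loose connective tissue fibroblast, mural, endothelial, osteoblast or blood cell list were detected in 102 of 321 trace cells (31.8%) against 7.50% of comparison cells, and in 29 of 539 pulse cells (5.38%) against 1.47%. Summed osteoblast markers reached 2704 CPM against 412 CPM in trace and 268 against 100.1 CPM in pulse, neutrophil markers 1361 against 422 CPM in trace and 130 against 226 CPM in pulse, and mural markers 167 against 28.0 CPM and 41.7 against 8.20 CPM. The synovial lining fibroblast list is not part of that count: at least 2 of its 6 markers were detected in 28.9% of heat-shock-high against 19.6% of comparison cells in pulse and in 33.6% against 29.9% in trace. Lymphocyte markers stood at 2.29 CPM in heat-shock-high trace cells, with 4 of 7 at 0, and all 7 were at 0 in pulse. Scrublet, a doublet caller that scores likeness to simulated pairs of cells, marked no cell at its own threshold, and the highest-scoring 5% of each library held 20.2% of heat-shock-high trace cells against 4.09% of comparison cells, and 10.9% against 3.84% in pulse. Heat-shock-high cells were also deeper, with a median of 3410 against 2955 UMIs in pulse and 5971 against 4283 in trace. Their mitochondrial share was lower, at a median of 0.885% against 1.12% and 0.957% against 1.20%. The libraries shared 16 barcodes, which 3 heat-shock-high cells carried. The part of these values in the results was not tested, beyond the ratios given below with the cells concerned left out.

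Genes were compared at 50 CPM or more in at least 1 of the 2 cell sets, and a gene was called at a ratio of 2-fold or more either way, with the 10 genes that chose the cells left out. A gene at 50 CPM in heat-shock-high cells alone can only come out higher. This held for 220 genes in pulse and 298 in trace, while 201 and 263 reached 50 CPM in comparison cells alone. In pulse 45 of 3649 genes (1.23%) were higher and 13 (0.356%) lower in heat-shock-high cells. In trace 123 of 3398 genes (3.62%) were higher and 39 (1.15%) lower. The median log2 ratio was -0.02 in pulse and -0.05 in trace, so the middle of all genes stood at nearly the same level in both cell sets. In both libraries 31 of 3109 genes (0.997%) were higher, which is 68.9% of the pulse list and 25.2% of the trace list, and 1 (0.0322%), Slc43a3, was lower. No gene was called in opposite directions. Without the cells that carried markers of other types, 42 genes were higher in pulse, 134 in trace and 29 in both, and 14 and 81 were lower. Of the 31, 13 belonged to heat shock lists, 7 to early response lists and 11 to neither. All lists were drawn up with earlier results of these data known, so their counts describe the cells and do not support the choice of lists.

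**Figure D2:**
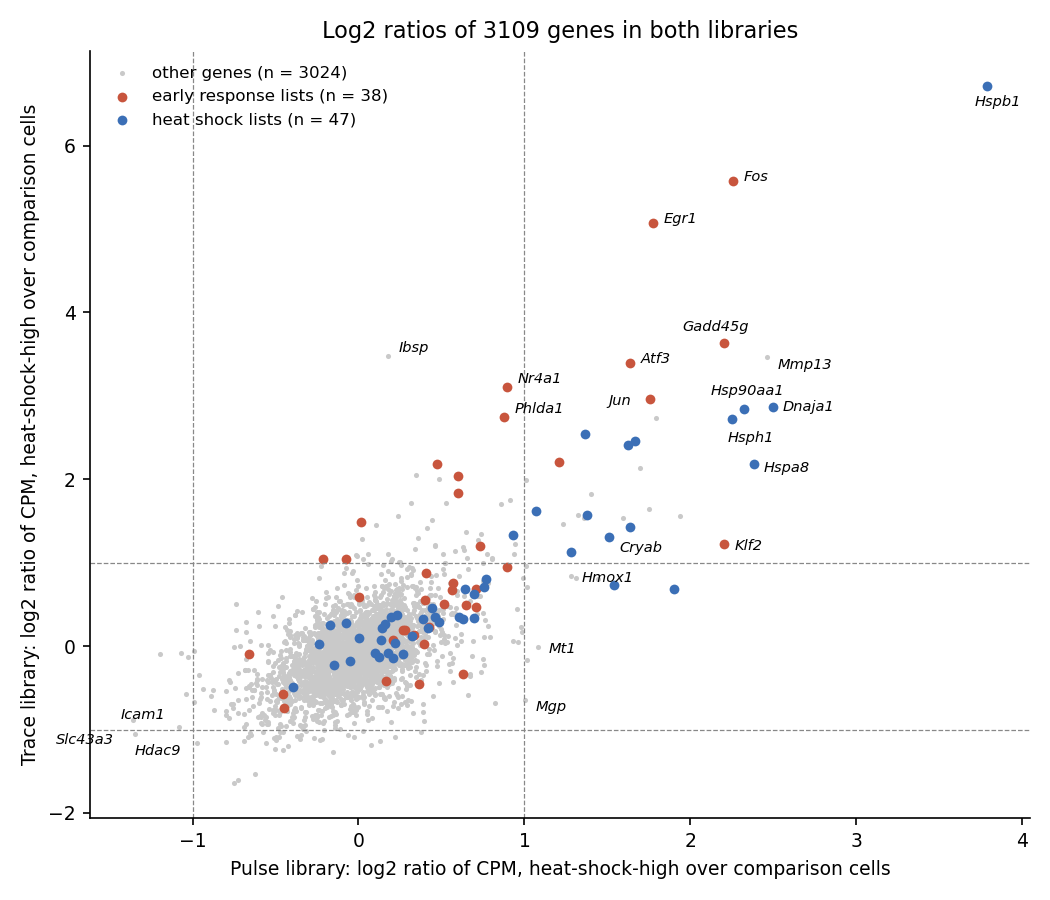
Log2 ratio of CPM in heat-shock-high over comparison cells in pulse (x axis) and trace (y axis) for 3109 genes at 50 CPM or more in both libraries, with dashed lines at 2-fold. Of the 31 genes in the upper right corner, 13 are heat shock and 7 early response genes, and Hspb1 lies farthest out at 3.79 and 6.72, and Ibsp stands out in trace alone.

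Small heat shock proteins hold unfolding proteins in a soluble state without using ATP. Hspb1, also called HSP25, stood at 613 CPM in heat-shock-high and 44.4 CPM in comparison cells of pulse, and at 1269 and 12.0 CPM in trace. Its ratios were 13.8 (95% counting interval 12.4 to 15.4) and 105 (92.0 to 121). The gene was at a low level in comparison cells of both libraries and at a high one in heat-shock-high cells, and the share of cells with a UMI after thinning was 5.99% against 30.4% in pulse and 1.98% against 40.3% in trace. Cryab, which encodes alpha-B-crystallin, was at 1033 against 363 CPM in pulse (2.85-fold) and 1419 against 574 CPM in trace (2.47-fold). Hspb8, the third list member at 50 CPM or more, reached 1.69-fold and 1.64-fold and was not called.

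Among HSP70 and HSP110 chaperones, 3 of 6 measured genes were called higher in pulse and 2 of 6 in trace. Hspa8, the constitutive HSP70, stood at 644 against 124 CPM in pulse and 1147 against 252 CPM in trace, ratios of 5.21 (4.81 to 5.64) and 4.56 (4.34 to 4.79). Hsph1, an HSP110 that reloads HSP70 with nucleotide, stood at 1172 against 246 CPM and 1205 against 182 CPM, ratios of 4.76 (4.50 to 5.04) and 6.61 (6.28 to 6.95). Hspa4l was called in pulse at 3.74-fold and stood at 1.60-fold in trace. Hspa5 and Hspa9, the HSP70s of the endoplasmic reticulum and of mitochondria, stood at 1.11-fold and 1.10-fold in pulse and 1.20-fold and 1.05-fold in trace. The called HSP70 and HSP110 genes were thus those of the cytosol and nucleus.

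J-domain proteins bring clients to HSP70. Dnaja1 stood at 361 against 64.1 CPM in pulse and 673 against 92.0 CPM in trace, ratios of 5.63 (5.06 to 6.28) and 7.32 (6.82 to 7.85). A single cell held 20.1% of its pulse UMIs, and the ratio without that cell was 4.51. Dnajb4 was called in both libraries (2.60-fold and 2.98-fold) and Dnaja4 in pulse at 4.04-fold, while it fell short of 50 CPM in trace. The other measured J-domain genes, 9 in pulse and 11 in trace, stayed within 2-fold, and the list medians were 0.01 and 0.23 on the log2 scale.

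HSP90 holds signalling proteins and HSF1 itself. The inducible form Hsp90aa1 stood at 734 against 147 CPM in pulse and 911 against 128 CPM in trace, ratios of 4.997 (4.64 to 5.38) and 7.14 (6.73 to 7.58). The constitutive Hsp90ab1 stood at 1.91-fold in pulse and 2.51-fold in trace, and Hsp90b1 of the endoplasmic reticulum at 1.13-fold and 0.947-fold. Of the cochaperones, Stip1, which joins HSP70 to HSP90, was called in pulse (2.90-fold; trace 1.66-fold), as was Chordc1 (2.34-fold), and the HSP90 activator Ahsa1 in trace (2.46-fold).

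Chaperonins close around a client in a barrel. The mitochondrial pair Hspd1 (HSP60) and Hspe1 (HSP10), whose promoters share the 18-base run printed above, were called in both libraries. Hspd1 stood at 199 against 64.7 CPM in pulse and 679 against 127 CPM in trace (3.08-fold and 5.33-fold). Hspe1 stood at 446 against 144 CPM and 601 against 223 CPM (3.11-fold and 2.69-fold). None of the 7 measured subunits of the cytosolic chaperonin was called, with Cct4 at 1.55-fold and 1.25-fold. No call among 7 genes is near the share of all genes called higher, 1.23% in pulse and 3.62% in trace. Bag3, a nucleotide exchange factor that steers HSP70 clients to autophagy, stood at 287 against 112 CPM in pulse and 454 against 78.0 CPM in trace (2.57-fold and 5.82-fold). It was the single call among 4 measured exchange factors and HSF regulators.

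Ubb, which encodes a precursor of ubiquitin, the tag that marks proteins for breakdown, stood at 685 against 327 CPM in pulse and 938 against 306 CPM in trace (2.10-fold and 3.06-fold). Cacybp, a cofactor of a ubiquitin ligase, was called at 2.43-fold and 2.18-fold. Serpinh1, the collagen chaperone HSP47, stood at 1.56-fold and 1.60-fold and was not called. Proteasome genes, the machine that ubiquitin feeds, had none of 20 measured members called in pulse and none of 24 in trace, with list medians of 0.30 and 0.21 on the log2 scale against -0.02 and -0.05 over all genes. None of 14 genes of the unfolded protein response of the endoplasmic reticulum was called in either library (medians 0.01 and 0.09). Over all genes 1.23% were called higher in pulse and 3.62% in trace. No call in these 2 lists is near those shares.

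**Figure D3:**
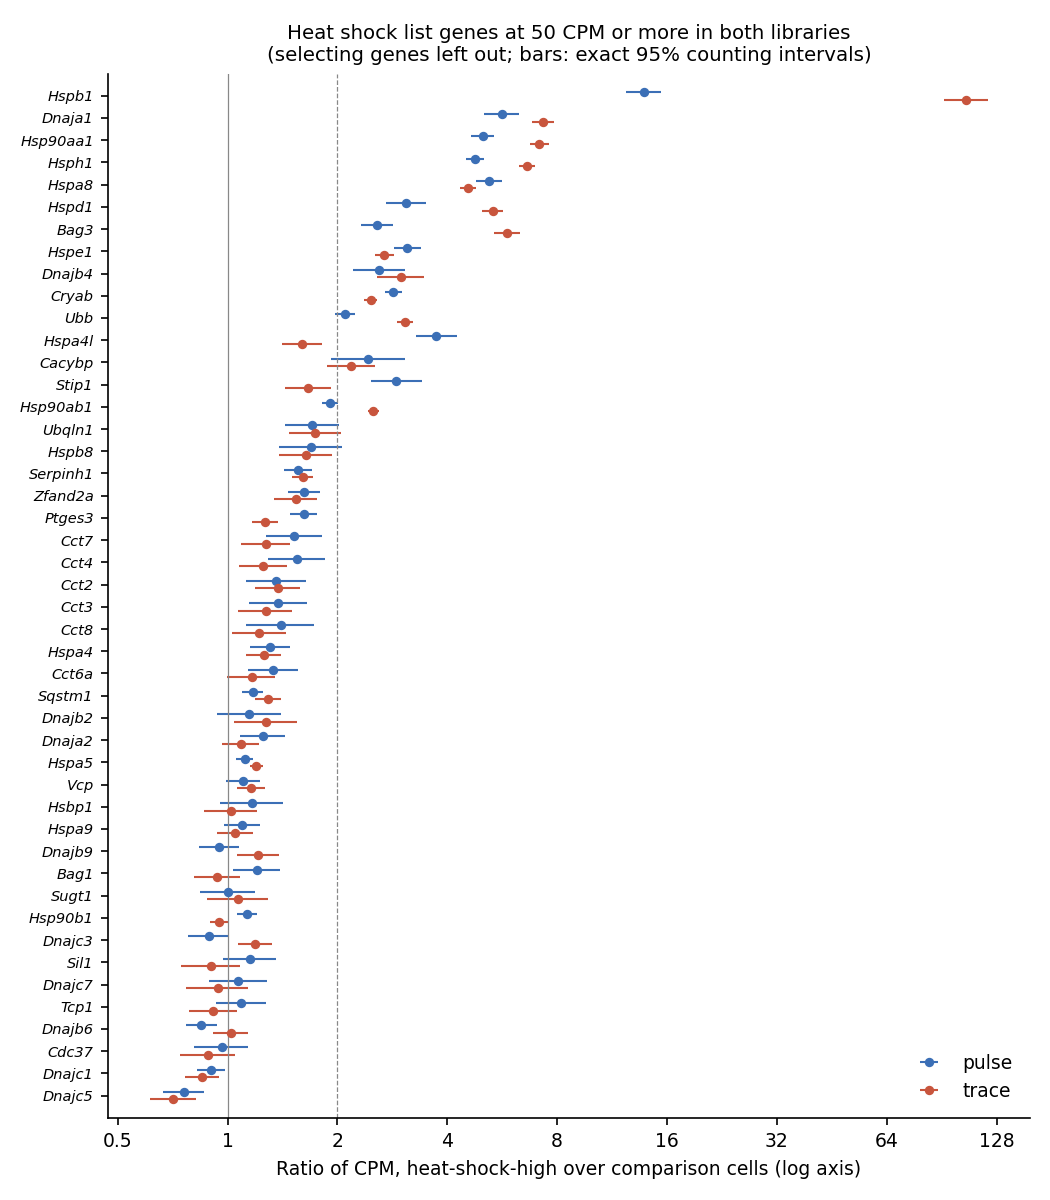
Ratio of CPM in heat-shock-high over comparison cells (x axis, log) for heat shock list genes at 50 CPM or more in both libraries, with exact 95% counting intervals, pulse in blue and trace in red. Genes called in both libraries have both points to the right of the dashed line at 2-fold, and subunits of the cytosolic chaperonin (Tcp1 and the Cct genes) lie to the left of it.

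Some early response genes were higher as well. Of immediate early transcription factors, 5 of 23 measured were called in pulse and 10 of 24 in trace, and none was lower. List medians were 0.60 and 0.82 on the log2 scale. Of the measured genes, 4 in pulse and 8 in trace, Fos among them, reached 50 CPM in heat-shock-high cells alone. Such genes could only come out higher, so the counts and medians were partly fixed by the filter. Fos stood at 109.5 against 22.9 CPM in pulse and 1292 against 27.1 CPM in trace, ratios of 4.77 (3.94 to 5.78) and 47.6 (43.3 to 52.5). Egr1 stood at 669 against 195 CPM and 1008 against 29.9 CPM, ratios of 3.42 (3.19 to 3.67) and 33.7 (30.7 to 37.1). Comparison cells of the libraries stood close in Fos and apart in Egr1, which was 0.153 times as high in trace as in pulse (0.139 to 0.168). Jun, the partner of Fos in AP-1, stood at 458 against 136 CPM and 668 against 85.4 CPM (3.37-fold and 7.82-fold), and Atf3, induced by many stresses, at 262 against 84.3 CPM and 509 against 48.6 CPM (3.11-fold and 10.5-fold). Klf2 was called in both libraries (4.60-fold and 2.35-fold). Fosb, Ier2, Junb, Fosl2 and Nr4a1 were called in trace, with Fosb at 221 against 9.13 CPM and Nr4a1 at 145 against 16.9 CPM, where pulse had 60.4 against 32.5 CPM.

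Early response feedback genes, which end or limit these signals, had 2 of 17 called in pulse and 8 of 16 in trace. Of the measured genes, 1 in pulse and 3 in trace reached 50 CPM in heat-shock-high cells alone, which partly fixed these counts. Gadd45g, a growth arrest gene, stood at 126 against 27.4 CPM in pulse and 606 against 49.05 CPM in trace (4.60-fold and 12.4-fold). Zfp36, which marks AU-rich messenger RNAs for decay, was the other gene called in both (2.31-fold and 4.61-fold). Phlda1, a gene given as a marker of these cells, stood at 529.9 against 288 CPM in pulse, 1.84-fold and short of a call, and at 1206 against 179.8 CPM in trace, 6.71-fold. Socs3, Sgk1, Trib1, Gadd45b and Zfp36l1 were also called in trace. Whether the larger trace ratios differ from those of pulse beyond the spread between mice was not tested.

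Levels of single genes were followed across steps of the selecting UMIs, of 0 to 2, 3 to 9, 10 to 19, 20 to 49 and 50 or more per cell, which held 2991, 371, 191, 197 and 151 pulse cells and 3986, 320, 95, 96 and 130 trace cells. Hspa8 went from 124 through 237, 356 and 453 to 1157 CPM in pulse and from 252 through 427, 625 and 904 to 1664 CPM in trace. It was higher at each step in both libraries. Fos went from 22.9 through 37.2, 68.4 and 74.8 to 191 CPM in pulse and from 27.1 through 118, 487 and 851 to 2132 CPM in trace. In both libraries Fos was therefore already higher in cells with 3 to 9 selecting UMIs, below the threshold, with the larger step in trace. List sums did not climb at every step: small heat shock proteins went from 1099 to 942 CPM between the second and the third step in pulse, J-domain cochaperones from 1856 to 1708 CPM, and early response feedback genes in trace from 9479.9 through 9139 to 9084 CPM over the first 3. The J-domain gene Dnaja1 took its largest step last, where it went from 197 to 794 CPM in pulse and from 239.8 to 1277 CPM in trace. Phlda1 did the same in trace, from 468 to 2308 CPM, and in pulse it was lower at 3 to 9 UMIs (204 CPM) than in comparison cells (288 CPM).

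**Figure D4:**
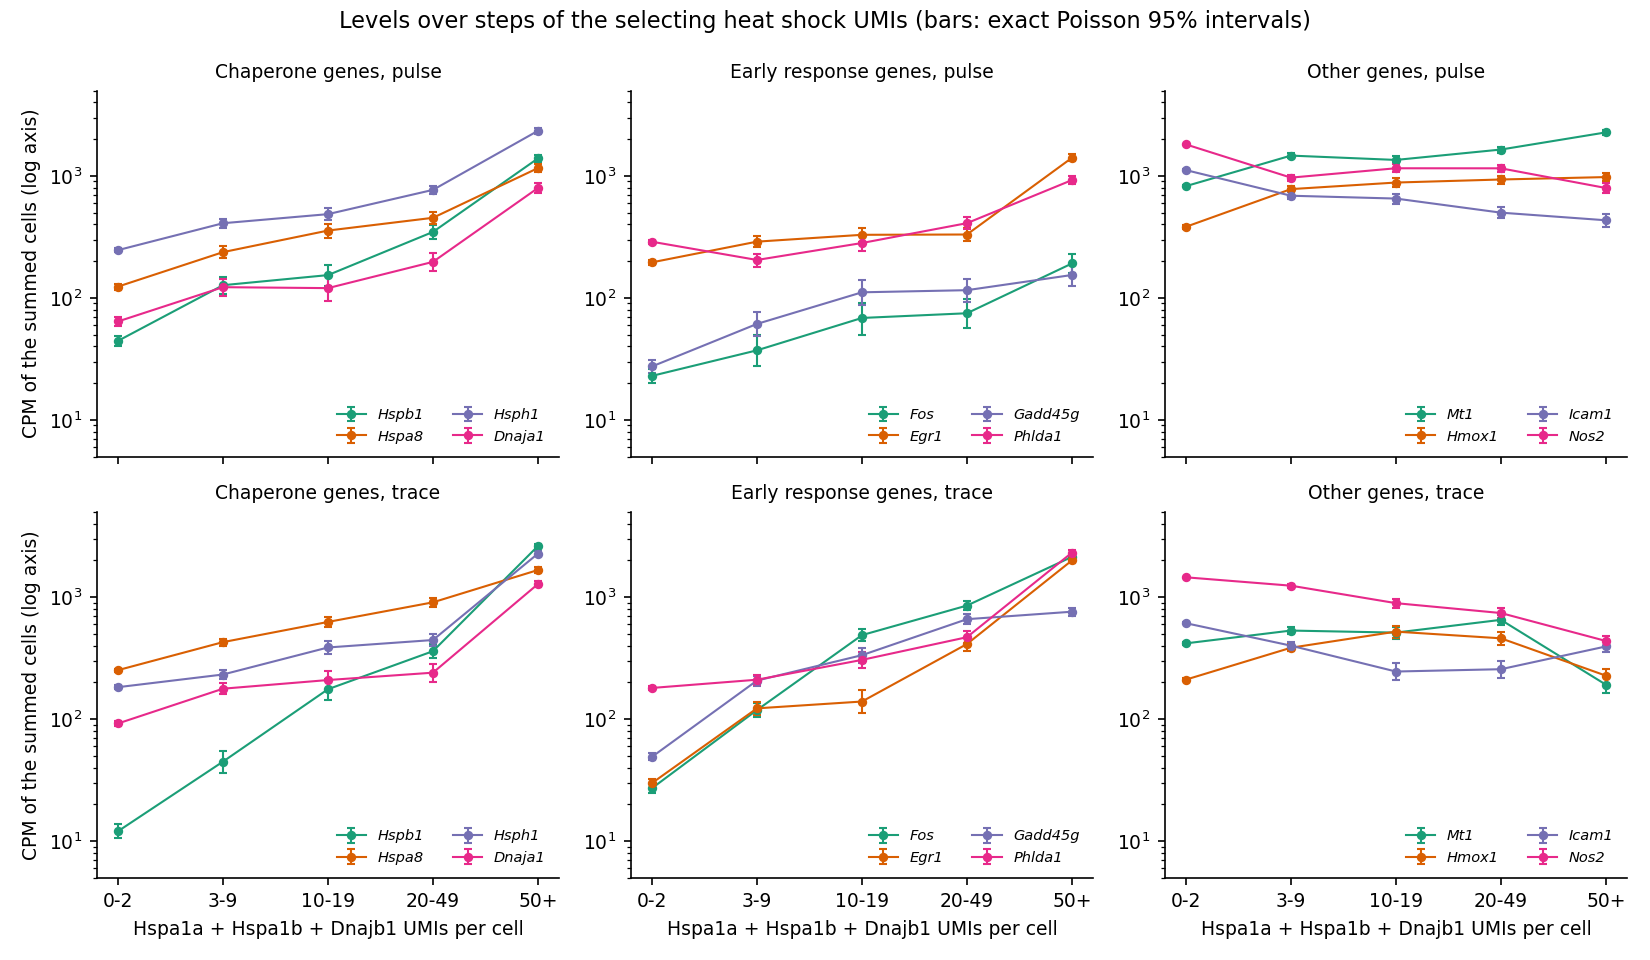
CPM of the summed cells (y axis, log) over 5 steps of Hspa1a, Hspa1b and Dnajb1 UMIs per cell (x axis), with exact Poisson 95% intervals, pulse above and trace below. Chaperone and early response genes reach their highest level at 50 or more UMIs in both libraries, and Mt1 falls to 191 CPM there in trace while it reaches 2268 CPM in pulse.

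Oxidative stress and metal response genes had 3 of 20 called in pulse and none of 18 in trace. Hmox1, which breaks down haem, stood at 929.7 against 382 CPM in pulse (2.43-fold) and 378 against 210.4 CPM in trace (1.79-fold). The metallothionein genes Mt1 and Mt2, whose proteins bind zinc and copper, stood at 2.12-fold and 2.02-fold in pulse and 0.992-fold and 0.890-fold in trace. Across the steps in trace, Hmox1 went from 210.4 up to 520.3 and back to 227 CPM, and Mt1 from 417 through 649.8 to 191 CPM, so the trace cells richest in Hspa1 transcripts had the least Mt1. Integrated stress response genes had none of 10 called in pulse and 1 of 9, Ddit4, in trace (2.07-fold). None of 9 p53 targets was called in pulse and none of 6 in trace, with Cdkn1a, which stops the cell cycle, at 1.12-fold and 1.43-fold. Over all genes 1.23% were called higher in pulse and 3.62% in trace, so lists with no call lie near those shares. Of apoptosis regulators, the survival gene Bcl2 was called lower in pulse (0.490-fold, or 156 against 318 CPM) and stood at 0.914-fold in trace.

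Surface chondrocyte genes stood within 2-fold in both libraries. None of 12 measured superficial-zone markers was called in either, with list medians of 0.22 in pulse and -0.04 in trace on the log2 scale. Over all genes 1.23% were called higher and 0.356% lower in pulse, and 3.62% and 1.15% in trace. No call among 12 genes is near these shares. Prg4, the lubricin gene, stood at 9661 against 8424 CPM in pulse (1.15-fold) and 25560.0 against 26459 CPM in trace (0.966-fold). Cytl1, a cytokine-like cartilage protein, stood at 1.09-fold and 1.40-fold. In trace cells with 50 or more selecting UMIs it was at 19053 CPM against 9668 CPM in comparison cells. Clu and Cilp were slightly higher in pulse (1.40-fold and 1.31-fold) and lower in trace (0.739-fold and 0.787-fold).

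None of 12 cartilage matrix genes was called either, which is again near the shares over all genes. Col2a1, which encodes the main cartilage collagen, stood at 4241 against 4994 CPM in pulse (0.849-fold) and 1511 against 2826 CPM in trace (0.534-fold). Sox9, the transcription factor that sets chondrocyte identity, stood at 0.994-fold in pulse and 1.73-fold in trace, and Trps1 at 0.725-fold and 0.699-fold. Mgp, which keeps cartilage from mineralizing, stood at 5979.6 against 2986 CPM in pulse (2.00-fold) and at 5947 against 9314 CPM in trace (0.639-fold), so it was called higher in pulse and lay lower in trace.

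Genes lower in heat-shock-high cells were fewer and less far from comparison cells. Hdac9, a class II histone deacetylase, stood at 1599 against 3138 CPM in pulse (0.510-fold) and 554 against 1238 CPM in trace (0.448-fold). Nos2, the inducible nitric oxide synthase, stood at 1039 against 1808 CPM and 654 against 1449.7 CPM (0.575-fold and 0.451-fold). Icam1, an adhesion molecule and target of NF-kB, stood at 527 against 1113 CPM and 311 against 609.9 CPM (0.473-fold and 0.511-fold). Bmp5, a bone morphogenetic protein gene, stood at 0.574-fold in pulse and 0.565-fold in trace. The ranking for named genes asked for the same sign in both libraries, so that each was lower in both was partly fixed by the choice. The step from comparison cells to cells with 3 to 9 selecting UMIs already showed lower levels. Icam1 went from 1113 to 687 CPM in pulse and from 609.9 to 399 CPM in trace. The same held for Hdac9, from 3138 to 1936 CPM and from 1238 to 798 CPM. Slc43a3, a purine transporter, was the gene called lower in both, at 42.7 against 109 CPM and 49.1 against 102 CPM. Others that the rule for named genes took were Tll1 (0.604-fold and 0.329-fold), a protease that processes procollagen, P3h2 (0.592-fold and 0.599-fold), a collagen prolyl hydroxylase, the Notch coactivator Maml2 (0.626-fold and 0.525-fold) and the stress kinase Map3k5 (0.621-fold and 0.570-fold). NF-kB and inflammatory genes as a list had 1 of 10 called lower in pulse (Icam1) and 1 of 11 called higher in trace (Csf1, 2.27-fold), with medians of -0.13 and -0.42 on the log2 scale.

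**Figure D5:**
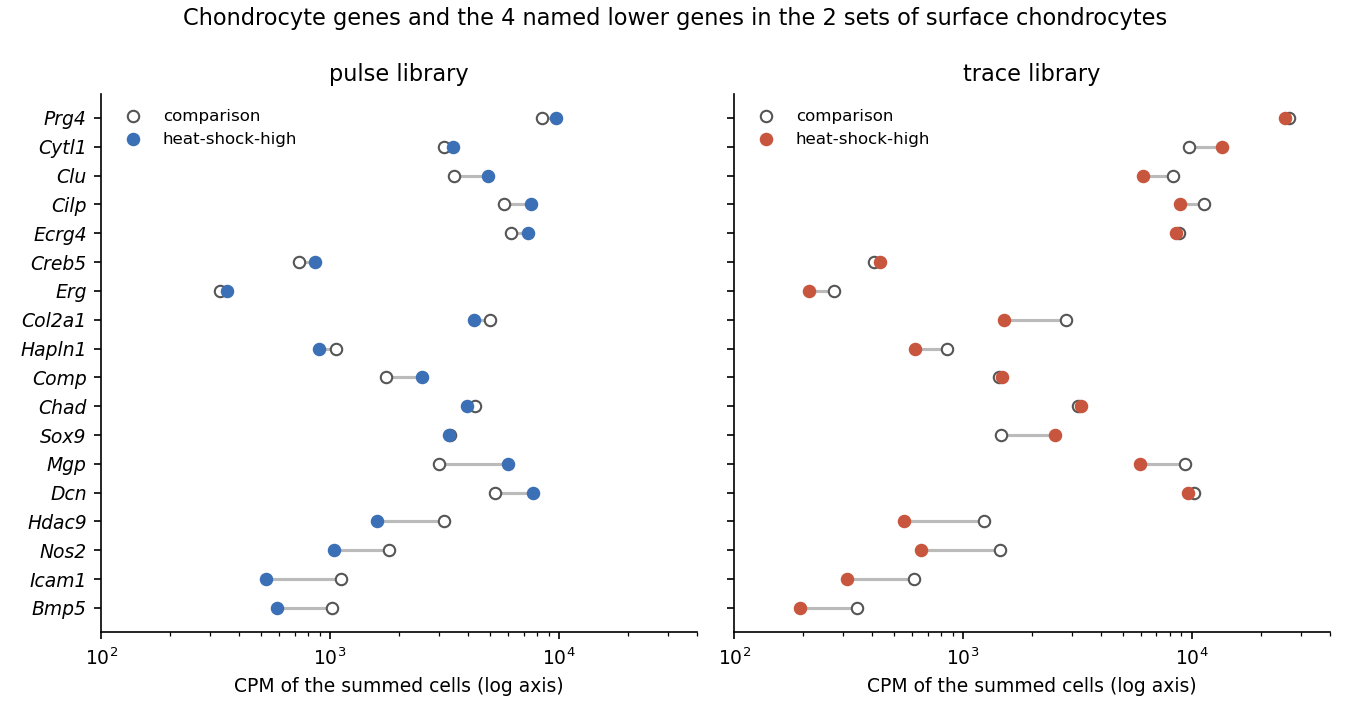
CPM of the summed cells (x axis, log) in comparison cells (open circles) and heat-shock-high cells (filled circles) for 14 chondrocyte genes and 4 genes that were lower in both libraries. From Prg4 to Dcn no pair of circles lies more than 2.00-fold apart, and Hdac9, Nos2, Icam1 and Bmp5 lie to the left in heat-shock-high cells of both.

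The 11 called genes outside both kinds of list were Col1a1, Col3a1, Mmp13, Ecm1, Vim, Tmsb4x, Cdh13, Ebf1, Igfbp5, Igfbp6 and Hist1h2bc, and some of these rested on few cells. Col1a1 stood at 224 against 64.7 CPM in pulse and 2519.7 against 379 CPM in trace (3.46-fold and 6.65-fold), and a single cell held 22.1% and 25.7% of its UMIs. Mmp13, a collagenase of hypertrophic cartilage and bone, stood at 55.5 against 10.1 CPM in pulse, where a single cell held 85.8% of its UMIs and the ratio without it was 0.783. Ibsp, a bone sialoprotein gene, stood at 1.13-fold in pulse and at 1977 against 177 CPM in trace (11.2-fold). Without cells that carried markers of other types, its log2 ratio in trace went from 3.48 to 0.74, and that of Col1a1 from 2.73 to 0.58. Col1a1 is itself in the osteoblast list used to leave these cells out, so part of its drop is built in. In pulse its log2 ratio went from 1.79 to 2.41. In hypertrophy and ossification genes 2 of 7 were called in pulse (Mmp13 and Mgp) and 5 of 9 in trace (Mmp13, Runx2, Ibsp, Alpl and Mef2c). Of the measured genes, 2 in pulse and 4 in trace reached 50 CPM in heat-shock-high cells alone and could only come out higher. Neutrophil genes such as S100a9, at 733 against 137 CPM in trace with 39.5% of UMIs in a single cell, stood in pulse at 3.44 against 28.2 CPM. Vim, an intermediate filament gene, was called at 2.02-fold and 3.97-fold and Tmsb4x, whose product binds actin, at 3.23-fold and 4.38-fold. Vim, Tmsb4x, Ebf1 and Col1a1 were no longer called in both libraries without the cells that carried other markers, nor without the highest-scoring 5% by Scrublet, which also ended the call of Col3a1, Ecm1, Cdh13, Mmp13 and Igfbp6. Igfbp5, which binds insulin-like growth factors, was called at 3.84-fold and 2.94-fold, and the histone gene Hist1h2bc at 2.50-fold and 2.97-fold.

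The ratios of Hspb1, Hspa8 and Fos were nearly as large or larger without the cells that carried other markers. The log2 ratio of Hspb1 was 3.79 in pulse and 6.72 in trace, and 3.75 and 7.02 without them. For Hspa8 it went from 2.38 and 2.19 to 2.40 and 2.28, and for Fos from 2.25 and 5.57 to 2.11 and 6.28. Without the highest-scoring 5% by Scrublet, Hspa8 stood at 2.45 and 2.35 and Fos at 2.11 and 6.14. With comparison cells weighted to the depth of the heat-shock-high cells, Fos stood at 2.25 and 5.55. Of the 31 genes called in both libraries, 21 kept the call under the main and all 15 other settings: 12 from heat shock lists, 7 from early response lists, Igfbp5 and Hist1h2bc. The other 10 lost it under at least 1 setting.

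Heat-shock-high cells outside the surface chondrocytes had higher Hspa8 and Hspb1 too. Among deeper-zone cells, Hspa8 stood at 2.79-fold in pulse and 2.95-fold in trace over cells with fewer than 3 selecting UMIs, and among cells with fewer than 2 Acan UMIs at 5.24-fold and 3.30-fold. For Hspb1 these ratios were 13.9 (11.8 to 16.6) and 147 (49.3 to 722) among deeper-zone cells and 28.5 and 19.5 among Acan-low cells. Among deeper-zone cells of pulse, Hspd1 stood at 2.26-fold (1.90 to 2.70) and Cryab at 2.26-fold (1.82 to 2.79), and among Acan-low cells they stood at 3.93-fold and 3.52-fold in pulse and 2.32-fold and 1.84-fold in trace. In the 39 heat-shock-high deeper-zone cells of trace, Hspd1 stood at 0.832-fold (0.549 to 1.23) and Cryab at 0.452-fold (0.377 to 0.540). Fos in trace stood at 31.8-fold among deeper-zone cells and 3.72-fold among Acan-low cells, where cells with few selecting UMIs were already at 289.8 CPM. Nos2 was lower in Acan-low cells too (0.169-fold and 0.204-fold), and Icam1 was not in trace (2.00-fold). Acan-low cells mix cell types whose shares over the threshold differed. Their ratios therefore carry cell type and selecting UMIs together, which cannot be told apart here. Whether any of these ratios differs between the cell classes beyond the spread between mice was not tested.

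Between the libraries, 182 of 3743 genes (4.86%) were 2-fold higher and 433 (11.6%) lower in trace than in pulse within heat-shock-high cells, and 115 of 3645 (3.16%) and 307 (8.42%) within comparison cells. All 6 transcripts associated with ribosomal RNA were higher in trace in both cell sets, with medians of 2.94 and 2.98 on the log2 scale. Fos stood at 11.8 times the pulse level (10.3 to 13.6) in heat-shock-high cells and 1.18 (1.01 to 1.39) in comparison cells. Hspb1 was 2.07 times as high in trace heat-shock-high cells (1.93 to 2.21) and 0.271 times as high in comparison cells (0.230 to 0.319); the gene was higher in one cell set and lower in the other. Prg4 was 2.65 and 3.14 times as high in trace, a change that both cell sets shared. Mt1 was 0.237 and 0.507 times, with the larger drop in heat-shock-high cells. These differences carry chase time, age, sex of the mice and library together, which cannot be told apart.

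Of the 31 genes called in both libraries, 23 had a promoter in the RefSeq table. A 2-unit heat shock element was found for 9 of these (39.1%), against 17.0% of all 27025 genes with a promoter, and the 3-unit element for 3 (13.0%: Hspd1, Hspe1 and Hsph1) against 0.662%. Among the 2456 genes with a promoter that were at 50 CPM or more in both libraries, these shares were 14.1% and 0.733%. The longer element was thus seen at both mitochondrial chaperonin genes and at the HSP110 gene. Hspd1 and Hspe1 share the same run of 18 bases, which is counted for each gene in the 3-unit and the 2-unit shares. Among the called heat shock genes with a promoter, 7 of 9 held a 2-unit element (Bag3, Dnaja1, Dnajb4, Hspb1, Hspd1, Hspe1 and Hsph1), and among the other called genes 2 of 14 did (Igfbp5 and Jun). Heat shock list genes that were measured in both libraries and not called in both held it in 7 of 29 cases (24.1%). Of the genes that chose the cells, Hspa1a and Hspa1b held the 2-unit element, and Dnajb1 held none in this window. Genes with no entry included Cdh13, Col1a1, Cryab, Egr1, Hist1h2bc, Hsp90aa1 and Hspa8.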

How the data were processed

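The pulse and trace libraries were made with 10x 3' V2 chemistry, 1 per group. The deposited matrices hold raw UMI counts per gene and barcode; per the file headers they were written by Cell Ranger 7.1.0, and the submitters' processing notes name Cell Ranger 3.0.1, mm10, STAR, HTSeq, Seurat and DESeq2, with no role given here. How multiply matching reads were counted is not given in the sources used here. The labels' treatment and batch fields repeat library terms and were not used to group cells.

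From these counts, cells were selected as described, UMIs were summed per library and cell set and scaled to CPM, and ratios were given exact conditional Poisson 95% intervals (Python 3.11.15, numpy 2.4.6, scipy 1.17.1). Total UMIs over all barcodes were 23306063 in pulse and 40284041 in trace. Heat-shock-high cells summed to 2036091 and 2180000 UMIs and comparison cells to 9630723 and 18839138 UMIs. A gene was considered at 50 CPM or more in at least 1 cell set and called at 2-fold, and a gene at 0 was set to a floor of 3 UMIs over the cell set. Doublets were not removed from the reported values; Scrublet (scanpy 1.11.5) scores were used in an alternative. The ratios and intervals were also run on simulated Poisson counts of the summed cells. Those counts hold no spread between cells, so genes with most UMIs in a few cells were not tested. Intervals cover counting error only.

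Genes were named as follows: the selecting genes and given markers; the 15 highest and 15 lowest by the smaller of both libraries' absolute log2 ratios with the same sign, at 100 CPM or more in a cell set of each library; and up to 5 per list with the largest mean absolute log2 ratio, without predicted, mitochondrial, ribosomal protein, haemoglobin and immunoglobulin genes. Other genes named because they were called, or as the neighbours of Hsph1, were chosen after their values were seen. Values of 1 gene that the counts include are not reported here. The members and lists were chosen with earlier results of these data known. Gene positions are from GENCODE M21 and sequences from RefSeq, both on GRCm38.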

Additional observations from a re-analysis of the deposited data

Results flagged for a closer look

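For 6 of the named genes the ratio of heat-shock-high over comparison cells moved opposite ways in the libraries, by at least 1.25-fold each, and the difference was not tested. Values are the log2 ratio in trace minus that in pulse. For Mgp, an inhibitor of mineralization, it was -1.65 (2.00-fold in pulse, 0.639-fold in trace). For the chemokine gene Cxcl2 it was -1.50 (1.77-fold and 0.624-fold), with 28.0% and 31.0% of its UMIs in a single cell. For Clu, which encodes clusterin, it was -0.92 (1.40-fold and 0.739-fold), and for the cartilage matrix gene Cilp -0.74 (1.31-fold and 0.787-fold). Both are superficial-zone markers. For Timp3, an inhibitor of matrix proteases, it was 1.01 (0.66-fold and 1.33-fold), and for Ifitm2, an interferon-induced membrane protein gene, 0.96 (0.71-fold and 1.39-fold).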

How the results depend on the processing

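Of 15 alternatives, 2 were chosen after seeing the data (other cell types' markers, Acan of 5 or more UMIs), as was leaving out the heat-shock-high cell with most UMIs of a gene. The number of genes higher in pulse, 45, was 93 with a floor of 20 CPM. The number lower in pulse, 13, was 36 with cells thinned to 2000 UMIs, 24 with a threshold of 20 selecting UMIs, 20 with comparison cells that had no selecting UMI, 31 with a floor of 20 CPM and 24 among cells with no deeper-zone gene. In trace, 123 genes were higher, against 185 with thinning, 310 with a floor of 20 CPM and 80 with a floor of 100 CPM. The number lower in trace, 39, was 74 by the mean of per-cell CPM, 95 with thinning, 91 with 20 selecting UMIs, 76 with a floor of 20 CPM, 103 without the highest-scoring 5% by Scrublet and 81 without cells carrying other types' markers. The count higher in both libraries, 31, was 57 with a floor of 20 CPM and 25 to 43 under the others. The share of heat-shock-high cells was 16.3% in pulse with thinning and Acan of at least 1 UMI, 8.92% in pulse and 4.88% in trace with 20 selecting UMIs, and 5.89% and 5.27% in trace without the Scrublet and other-marker cells. With 2-unit elements in place of 3 units the promoter share was 39.1%. Floors changed the number of genes tested; for the other settings the cause was not tested. The pulse log2 ratio of Mmp13, 2.46, was -0.020 with thinning, -0.22 without the Scrublet cells and -0.35 without 1 cell, and that of Col1a1, 1.79, was -0.50 without the Scrublet cells. No other called ratio among the 304 gene results changed sign under these alternatives. No paired analysis was possible because each group has 1 library. Thinning changed depth, the threshold and the Acan minimum together, so its effect cannot be put down to depth; with comparison cells weighted to the depth of the heat-shock-high cells, 46 of 304 gene ratios left their counting interval.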

Other observations

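Genes of BMP and TGF-beta signalling had none of 13 measured members called in pulse and 3 of 15 higher in trace. Id1 and Id3, inhibitors of helix-loop-helix factors that BMP signals raise, stood at 194 against 71.1 CPM and 283 against 38.5 CPM in trace, and at 53.5 against 49.7 CPM and 48.1 against 16.2 CPM in pulse. Smad7, which limits TGF-beta signals, stood at 3.36-fold in trace and 1.88-fold in pulse. The YAP target Ccn1 was the call among 9 measured genes of its list in trace (3.29-fold; pulse 1.44-fold), and none of 11 was called in pulse. Lum and Omd, small proteoglycans of fibrous tissue and bone, were called in trace (3.31-fold and 3.31-fold) and stood at 1.16-fold and 1.11-fold in pulse. Hypoxia and glycolysis genes had none of 17 called in pulse and none of 18 in trace, with medians of 0.08 and -0.30 on the log2 scale. Over all genes 1.23% were called higher in pulse and 3.62% in trace, so lists with no call lie near those shares. All trace values in this paragraph come from the library in which 31.8% of heat-shock-high cells carried markers of other cell types.

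A pair of genes next to Hsph1 was noticed after the values were seen. Hsph1 lies at chr5:149614287-149636376 on the minus strand, and Wdr95 lies beyond its 3' end at chr5:149528679-149611894 on the plus strand, 2393 bases away. Wdr95 stood at 32.4 against 12.3 CPM in pulse (2.65-fold, 1.93 to 3.61) and 65.6 against 1.06 CPM in trace (61.8-fold, 38.5 to 104). Gm15997, annotated as antisense at chr5:149489056-149538030 on the minus strand, begins 76257 bases beyond the end of Hsph1. It had 117 UMIs in heat-shock-high and 2 in comparison cells of trace, a ratio of 506 (137 to 4224), and 438 without the cell that held most. In trace 7.48% of heat-shock-high and 0.0502% of comparison cells had a UMI of it. In pulse it had 3 UMIs in heat-shock-high and 30 in comparison cells, a ratio of 0.473 (0.0924 to 1.52). Reads from overlapping genes on opposite strands cannot be told apart unless the counting used strand, which is not given in the sources used here.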
